A study of Mus musculus with 30 samples.

Results

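The acute loss of the chromatin remodeller SRCAP was followed here through nuclear RNA of mouse embryonic stem (ES) cells after 6 h of auxin. The comparison took the 2 libraries of SYAT cells given 500 µM of the auxin indole-3-acetic acid (IAA) for 6 h and the 2 control libraries of the same time course, 4 of the 30 libraries of the series, as their labels name them. SYAT cells descend from CGR8 mouse ES cells in which both Srcap alleles were fused to YPet and an auxin-inducible degron, as 1 homozygous clone. A lentiviral EF1a cassette added the auxin receptor OsTir1 with SNAP and puromycin resistance, and cells that lost YPet fluorescence under IAA were sorted to make the line. Control and treated libraries therefore carry the same tag and the same receptor. Control cells were not untreated but received auxinole, an inhibitor of the receptor, at 200 nM by the sample labels, where the study's Methods give the same number in micromolar. The Methods call the libraries biological duplicates, and the p-values below measure the spread between such duplicates.

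SRCAP is the ATPase of a multi-subunit complex that exchanges the histone H2A in nucleosomes for the variant H2A.Z. H2A.Z marks the nucleosomes that flank active and poised promoters and enhancers, and in ES cells it is found at housekeeping genes as well as at developmental genes silenced by Polycomb. Degron-tagged proteins are removed after auxin is added, so RNA measured a few hours later lies close to the loss of the protein. No protein level was among the values used, and the degron acts on the protein and not on its RNA.

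Each of the 4 libraries has an exon column and an intron column of counts per gene. Exon columns of the 10 time course libraries summed to 17540823 to 22873893 counts and intron columns to 18652274 to 26851535. The intron columns also hold exonic reads, because 670 single-exon genes without overlapping neighbours had a median intron to exon count ratio of 0.996. For that reason the exon column leads below and the intron column stands beside it. The intron column was also unsteady for some genes. In the 4 libraries compared, 229 genes had at most 2 intron counts in a library and over 50 in another, with over 50 exon counts in all 4. Replicate 2 of the 6 h treatment stood apart from the other 9 libraries. Mitochondrially encoded genes took 0.527% of its exon counts, against 1.80% to 2.44% in the others. Its highest Spearman correlation with another library was 0.968, whereas the highest of each other library was 0.987 or more. The 4796 genes of shortest span in the annotation (median 1.37 kb) had a median log2 ratio of -0.346 in it over replicate 1 of the same treatment. Values in replicate 1 alone or without this library are therefore given beside many results.

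The cells carried the defining RNAs of ES cells in all 4 libraries. Pou5f1, the core pluripotency factor OCT4, had 11891 and 12768 normalized exon counts in the control libraries and 13166 and 19548 at 6 h. Sox2, its partner, had 6071 and 7489.9 and 5969 and 6198, and Nanog, a homeobox factor of the same network, had 869 and 1496 and 1451 and 2124. The highest values of Pou5f1 and Nanog were both in replicate 2 of the 6 h treatment. Of 15 fibroblast markers 11 were tested, with summed counts of 2089 and 1439 in the control libraries and 2031 and 2630 at 6 h, and Lum and Postn were at 0 in those 4 libraries. Counts in bulk RNA cannot tell fewer cells of a type from less RNA per cell.

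Across all genes, a small set passed the main test and a larger set the study's tool. Below, log2 changes are fold changes of 6 h over control from edgeR with their standard error (SE), and adjusted p-values are edgeR's over all genes tested. A gene was called at an absolute log2 fold change above 0.5 and an adjusted p under 0.05. Of 19205 genes tested in exons, edgeR called 13 (0.0677%), of which 7 were lower (0.0364%) and 6 higher (0.0312%) after 6 h of IAA. An unadjusted p under 0.05 was reached by 3099 genes (16.1%), 1576 lower (8.21%) and 1523 higher (7.93%). DESeq2 called 564 of 15707 genes (3.59%), 348 lower (2.22%) and 216 higher (1.38%). In the intron column edgeR called 2 of 14719 genes (0.0136%), 1 in each direction (0.00679%), with 2136 genes (14.5%) at an unadjusted p under 0.05. DESeq2 called 464 of 13753 there (3.37%), 282 lower (2.05%) and 182 higher (1.32%). The exon shares are the background for the counts in gene lists below. Those lists were chosen with earlier results of these data known, so their counts describe them and can follow in part from the choice.

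These counts depended on single libraries. When 1 library is left out its group is a single library, which the fits assume to vary like the other groups. Without replicate 2 of the 6 h treatment, edgeR called 0 genes in exons and DESeq2 called 94 lower (0.694%) and 37 higher (0.273%) there, and 113 lower (0.856%) and 81 higher (0.613%) in the intron column. Without control replicate 1, edgeR called 0 and DESeq2 32 lower (0.215%) and 36 higher (0.242%) in exons. Without control replicate 2, edgeR again called 0 and DESeq2 10 lower (0.0674%) and 14 higher (0.0943%). Without replicate 1 of the 6 h treatment the calls rose instead, to 1542 lower and 1621 higher by edgeR and 1464 and 1508 by DESeq2. Across the 19205 genes, the log2 ratio of 6 h to control in replicate 1 correlated with that in replicate 2 with a Pearson r of 0.155 and a Spearman rho of 0.200, a description over genes that share their libraries. The groups did not overlap for 4257 genes lower (22.2%) and 4125 higher (21.5%) in exons, and for 3476 lower (23.6%) in the intron column.

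The called genes kept their direction in replicate 1 alone. All 348 genes called lower in exons by DESeq2 were below 0 there, 332 of them past the fold threshold, with a median of -0.87 in replicate 1 and -1.17 in replicate 2. Of the 216 called higher, 215 were above 0 in replicate 1 and 158 past the threshold, with medians of 0.68 and 1.23. Replicate 1 is one of the 2 replicates that made the calls, so these counts describe the calls. Under every one of the 4 removals DESeq2 called 8 lower genes, Alkbh8, Ctns, Map2k6, Ndufaf4, Pramef8, Ttc26, Wdr7 and Zik1, and 8 higher genes, Cilp2, Cntfr, Edn2, Epb41l1, Inhbb, Itpr3, Wt1 and Zfp423. These 16 were listed after their values were seen.

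Srcap itself (chromosome 7, 127511983 to 127561219, plus strand, in mm10) had 815 and 936 normalized exon counts in the control libraries and 957 and 1231 at 6 h. Both 6 h values exceeded both control values, with replicate 2 highest. Its log2 change of 0.32 ± 0.175 (SE) did not pass, with an adjusted p of 0.391 from edgeR, and was 0.13 without replicate 2 of the treatment. The gene overlaps Snora30 and an antisense gene, and the strand setting of the counting is not given in the sources used here. Of the 9 subunit genes of the SRCAP complex, 0 were called by edgeR or DESeq2. There were 2 with an unadjusted p under 0.05, both lower, against 8.21% of all genes lower. The median of the 9 was 0.07, against 0.01 over all genes tested, and -0.28 in replicate 1 alone.

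Dmap1, a subunit of both the SRCAP and TIP60 complexes, had 556 and 575 counts in controls and 312 and 422 at 6 h. Both 6 h values were below the controls, with a log2 change of -0.63 (adjusted p = 0.155). Among 14 genes of H2A.Z, its chaperones and TIP60, edgeR called 0. An unadjusted p under 0.05 was reached by 3 lower and 3 higher, against 8.21% and 7.93% of all genes. DESeq2 called 1 lower, Kat5, the acetyltransferase of TIP60, against 2.22% of all genes. Kat5 had 693 and 748 counts in controls and 505 and 404 at 6 h, a log2 change of -0.66 (adjusted p = 0.104 from edgeR), and it lost the DESeq2 call without replicate 2 of the treatment, where its log2 fold change was -0.51. H2afz, which encodes H2A.Z, had 11953 and 11191 counts in controls and 12555 and 24006 at 6 h. Only replicate 2 lay well above the controls, and the log2 change of 0.66 became 0.12 without it (adjusted p = 0.22 with it).

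The 7 genes that edgeR called lower in exons encode a kinase, a helicase, an enzyme of tRNA modification, a zinc-finger protein and proteins of lysosomes and mitochondria. Map2k6 (chromosome 11, 110399122 to 110525522, plus strand), the kinase MKK6 that activates p38, had 191 and 206 counts in the control libraries and 56.9 and 45.2 at 6 h. The groups did not overlap, with a log2 change of -1.96 ± 0.26 (SE, adjusted p = 0.045). Its counts at the other times were 160.4 and 133 at 2 h, 85.9 and 81.4 at 4 h and 42 and 55.4 at 8 h, so that every library from 4 h on lay below every earlier one. In the parental CGR8 cells, which have no degron and were given IAA for 4 h, its counts were 389 and 463 without and 438 and 482 with IAA. That table was normalized apart from the time course, so only its ratios can be set beside it.

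Zik1 (chromosome 7, 10487229 to 10495394, minus strand), a Krüppel-type zinc-finger gene, had 461 and 438 counts in controls and 146 and 114 at 6 h, a log2 change of -1.79 ± 0.21 (SE, adjusted p = 0.045). At 2, 4 and 8 h it had 269.6 and 235, 207 and 181 and 194 and 159.5. The 6 h libraries were the lowest of the time course, and those at 2 h lay between them and the controls. Ndufaf4 (chromosome 4, 24898083 to 24905001, plus strand), an assembly factor of respiratory complex I, had 464 and 490.4 in controls and 204 and 144 at 6 h, a log2 change of -1.45 ± 0.202 (SE, adjusted p = 0.0486). In CGR8 cells both genes were higher with IAA than without, by a log2 ratio of 0.33 and 0.35, which was not tested.

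Ctns (chromosome 11, 73183596 to 73199042, minus strand), the lysosomal cystine exporter cystinosin, had 359 and 381 counts in controls and 147 and 128 at 6 h. Neither group overlapped the other, with a log2 change of -1.43 ± 0.194 (SE, adjusted p = 0.045). Its counts were 279 and 290.5 at 2 h and 175 and 144 at 8 h. Alkbh8 (chromosome 9, 3335140 to 3391154, plus strand), a methyltransferase of the tRNA wobble base, had 1018 and 998 in controls and 497 and 425 at 6 h, a log2 change of -1.13 ± 0.146 (SE, adjusted p = 0.045). Wdr7 (chromosome 18, 63708685 to 63989776, plus strand), a partner of the vacuolar proton pump, had 790.2 and 719 in controls and 337 and 359 at 6 h, a log2 change of -1.12 ± 0.15 (SE, adjusted p = 0.045), and it overlaps Txnl1 on the opposite strand. Ddx19b (chromosome 8, 111003188 to 111031751, minus strand), an RNA helicase of mRNA export, had the smallest change of the 7, from 1828 and 1844 to 990.0 and 902, a log2 change of -0.96 ± 0.136 (SE, adjusted p = 0.0495).

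Receptors, a ligand and transcription factors of developing tissues were among the 6 genes called higher by edgeR. Zfp423 (chromosome 8, 87661810 to 87959595, minus strand), a zinc-finger factor of BMP and EBF signalling, had 1076 and 1142 counts in controls and 2891 and 2956 at 6 h. The 4 values fell into separate pairs with almost no spread at 6 h, and its log2 change of 1.40 ± 0.135 (SE) had the lowest adjusted p in exons, 0.0204. Its intron column moved from 2537 and 2935 to 8329.5 and 8218. Cntfr (chromosome 4, 41657498 to 41697089, minus strand), the binding subunit of the receptor of ciliary neurotrophic factor, was the 1 gene called higher by edgeR in both columns. It had 206 and 144 exon counts in controls and 484 and 531 at 6 h, a log2 change of 1.54 ± 0.208 (SE, adjusted p = 0.045), and 231 and 208 and 753 and 798 intron counts, a log2 change of 1.82 (adjusted p = 0.0252). CGR8 cells had 430.0 and 439 exon counts of Cntfr without and 724 and 750.4 with IAA, a log2 ratio of 0.76 in cells whose SRCAP has no degron.

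Edn2 (chromosome 4, 120161206 to 120167360, plus strand), the peptide ligand endothelin 2, had 21.7 and 28.7 counts in controls and 107 and 196 at 6 h. Both 6 h values lay above the controls, replicate 2 higher, with the largest log2 change of the 6, 2.57 ± 0.347 (SE, adjusted p = 0.045), and 2.07 without replicate 2 of the treatment. Its values in CGR8 cells were 143 and 90.2 without and 275 and 182 with IAA, also higher with IAA, at a log2 ratio of 0.97. Itpr3 (chromosome 17, 27057304 to 27122223, plus strand), a receptor for inositol trisphosphate that releases calcium downstream of ligands such as endothelins, had 879 and 838 in controls and 1647 and 1878 at 6 h, a log2 change of 1.04 ± 0.132 (SE, adjusted p = 0.045). It is overlapped by the antisense gene Itpr3os.

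Wt1 (chromosome 2, 105126529 to 105173616, plus strand), a factor of kidney and gonad development, had 289.6 and 241 counts in controls and 632 and 693 at 6 h, a log2 change of 1.32 ± 0.176 (SE, adjusted p = 0.045). It was still high at 8 h, with 682 and 799. Epb41l1 (chromosome 2, 156420909 to 156543214, plus strand), a linker between membrane proteins and actin, had 429 and 420.3 in controls and 819 and 1053 at 6 h, a log2 change of 1.14 ± 0.16 (SE, adjusted p = 0.0494). In replicate 1 alone all 13 genes kept their sign and passed the fold threshold, with medians of -1.23 over the lower and 1.18 over the higher genes. By edgeR the smallest adjusted p among them was 0.0764 without replicate 2 of the treatment, 0.359 without control replicate 1 and 0.471 without control replicate 2, so none was called there. DESeq2 called all 13 without each of these libraries, except Ddx19b without control replicate 2.

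**Figure D1:**
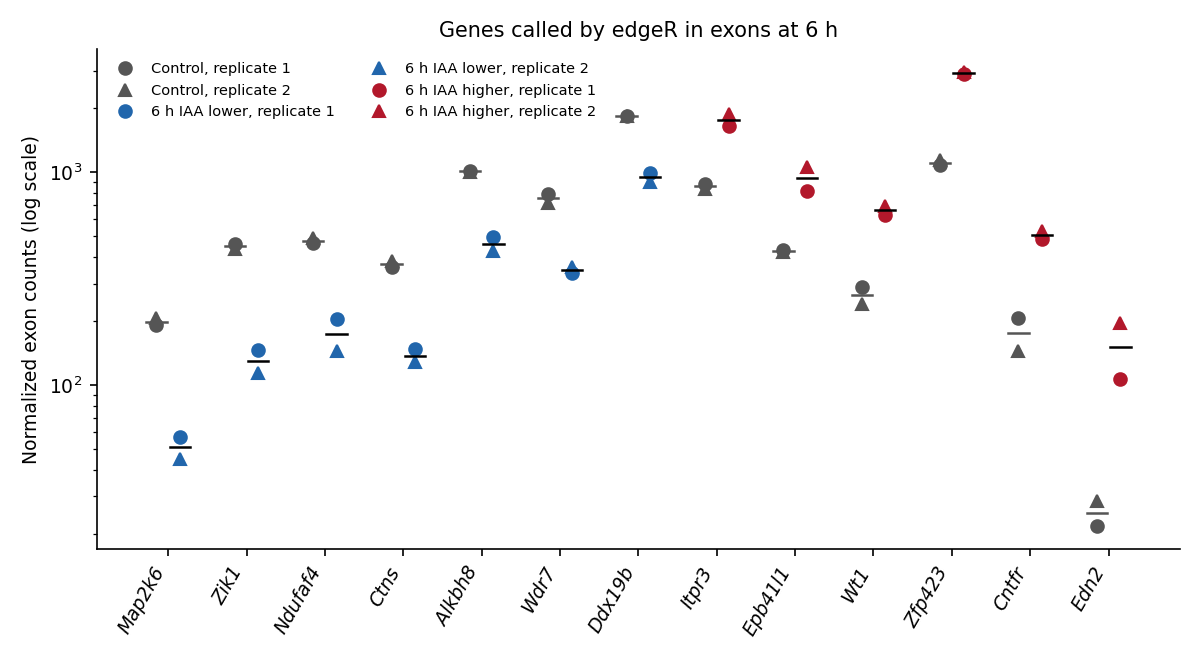
Normalized exon counts (vertical axis, log scale) of the 13 genes called by edgeR, with control libraries in grey, 6 h libraries in blue for lower and red for higher genes, circles for replicate 1, triangles for replicate 2 and bars for the means of 2 libraries. In each gene both 6 h symbols lie on the same side of both control symbols, as for Zfp423 with 2891 and 2956 against 1076 and 1142.

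Calls by DESeq2 in the same direction in both columns gave 220 lower and 108 higher genes. They are 78.0% of the intron and 63.2% of the exon calls among lower genes, and 59.3% and 50% among higher genes, and no gene was called in opposite directions. The columns share reads, so this overlap describes the calls and is not a second measurement. In replicate 1 alone 220 and 108 kept their sign in both columns. Without replicate 2 of the treatment, 41 lower and 17 higher genes were called in both columns. With the exon counts taken off the intron counts, 15 of the lower and 15 of the higher genes were called as well.

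The lower genes of largest fold among these 220 included genes of cilia and lysosomes. Ttc26, an intraflagellar transport subunit, had 190.3 and 200.0 exon counts in controls and 68.8 and 40.2 at 6 h, a log2 change of -1.84 that did not pass in edgeR (adjusted p = 0.0533) but did in DESeq2, with and without replicate 2 of the treatment. Ttc30a1, also of intraflagellar transport, had 173 and 193 and 52.2 and 67.8, and Spata7, of the photoreceptor cilium, 128 and 170.5 and 39.1 and 35.1. Their groups did not overlap, at log2 changes of -1.61 and -2.01 and adjusted p-values of 0.0533 and 0.0613 from edgeR, and DESeq2 called both also without replicate 2. Lipa, the lysosomal acid lipase, had 236 and 197 and 83 and 50.2, a log2 change of -1.69, and was not called by DESeq2 without that library, at -1.37. The zinc-finger genes Zfp759 and Zfp994 had log2 changes of -2.28 and -2.11. Zfp759 kept its DESeq2 call without that library, at -2.08, and Zfp994 did not, at -1.72. Pramef8, of the PRAME family, had 434 and 359.6 and 158 and 138, a log2 change of -1.42 (adjusted p = 0.0509 from edgeR).

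Of the 108 higher ones, those with the largest changes by the rule for named genes follow. Inhbb, the beta B subunit of activins, had 43.4 and 77.7 counts in controls and 218 and 569.7 at 6 h. Both 6 h values lay above both controls but replicate 2 was far higher than replicate 1, and the log2 change of 2.69 became 1.84 without it, where DESeq2 still called it. Notch4, a Notch receptor, had 139 and 143 and 296 and 758, Adrb1, the beta-1 adrenergic receptor, 17.6 and 22.8 and 56.9 and 141, and Tcf15, a mesodermal bHLH factor, 868 and 771 and 1333 and 3128. These 3 showed the same skew towards replicate 2 and lost their DESeq2 calls without it, at 1.08, 1.49 and 0.71 against 1.90, 2.27 and 1.44 with it. Hbegf, a ligand of the EGF receptor, had 101 and 76 and 224 and 247, and Skor1, a SKI family corepressor, 26.9 and 49 and 134 and 146. Both 6 h libraries were alike for these, and the log2 changes of 1.41 and 1.87 were 1.35 and 1.81 without replicate 2, both called by DESeq2. Cilp2, a cartilage matrix protein, had 254 and 236 and 555 and 1095, a log2 change of 1.75 and of 1.18 without replicate 2.

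**Figure D2:**
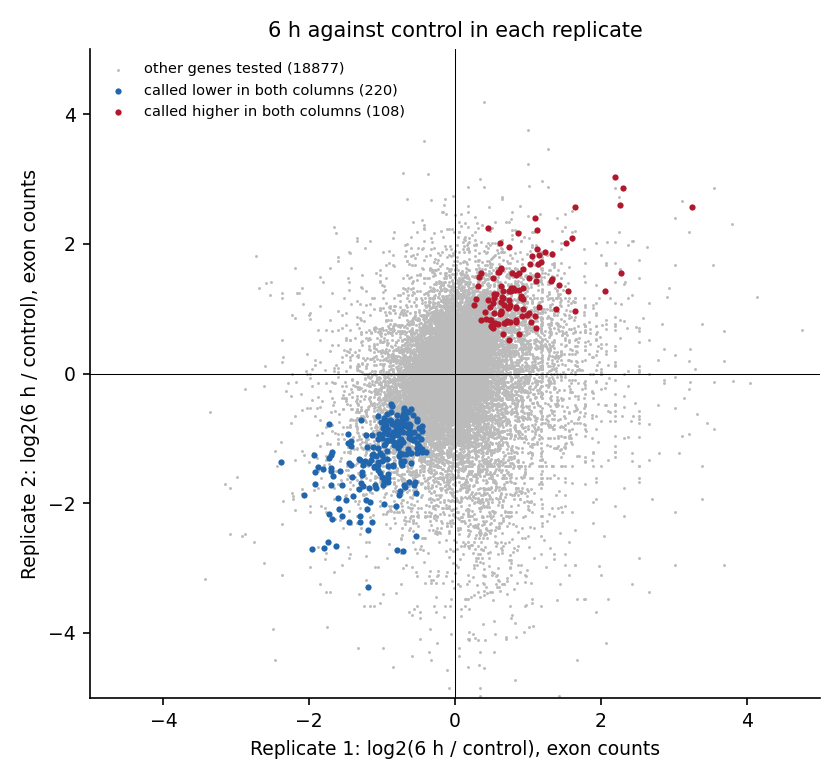
Log2 ratio of 6 h to control in exon counts for replicate 1 (horizontal axis) and replicate 2 (vertical axis), with genes called in both columns in blue (220 lower) and red (108 higher), the other genes tested in grey, and 2 genes beyond the axis limit of 5. Called genes sit at the lower left and upper right, within a grey cloud whose Pearson r was 0.155.

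Across the time course the 220 lower genes had median exon log2 fold changes against control of -0.41 at 2 h, -0.78 at 4 h, -0.99 at 6 h and -0.92 at 8 h. The 108 higher genes had 0.38, 0.64, 0.99 and 0.80, while the median of all genes lay between 0.00 and 0.03. These values share the control libraries, and the 6 h values chose the genes. In CGR8 cells the medians were 0.10 over the lower genes, of which 67 were below 0, and 0.13 over the higher genes, of which 40 were below 0. The lower and higher genes spanned 25.8 kb and 26.8 kb at the median, against 14.9 kb over all genes tested, and 98.6% and 98.1% were protein-coding, against 74.2%. Their median control exon counts were 366 and 347, against 161, and 2.27% and 2.78% had a single exon, against 19.5%. Whether these traits follow from which genes can be called in both columns was not tested.

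Genes of the primary cilium lay below 0 almost throughout. Cilia are built by intraflagellar transport (IFT), gated by the transition zone and supplied with membrane proteins by the BBSome, a complex named after Bardet-Biedl syndrome. Of 51 such genes tested in exons, 48 were below 0, against 49.1% of all genes. At an unadjusted p under 0.05, 25 were lower and 0 higher, against 8.21% and 7.93% of all genes. edgeR called 0 of them and DESeq2 9, all lower, against 2.22% of all genes called lower by DESeq2. For 40 of the 51 both 6 h values lay below both controls and for 0 above, against 22.2% of all genes below. The list does not hold Ttc26, Ttc30a1 and Spata7, so its 9 calls leave them out. It was chosen with earlier results of these data known, so its shares are a description and can follow in part from the choice. The median log2 fold change was -0.59, with -0.51 in replicate 1, -0.61 in replicate 2 and 0.01 over all genes. In replicate 1 alone 48 of 51 were below 0. The intron column gave a median of -0.67 over 40 genes tested, 40 of them below 0, and -0.55 in replicate 1.

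**Figure D3:**
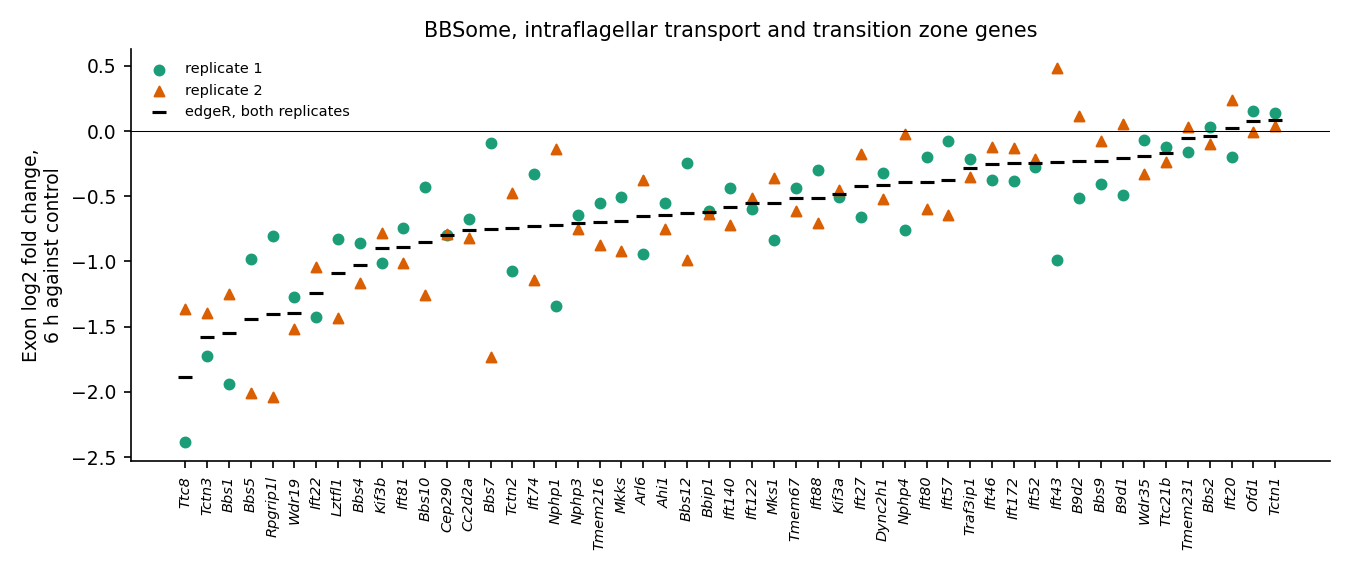
Exon log2 fold change at 6 h (vertical axis) of the 51 genes of the BBSome, intraflagellar transport and the transition zone, ordered by the edgeR value (black dash), with the ratio in replicate 1 as green circles and in replicate 2 as orange triangles. In replicate 1, 48 of the 51 circles lie below 0, and Ift20, Ofd1 and Tctn1 have the 3 edgeR values above 0.

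Promoter sequence is shown for 3 of these genes and for the zinc-finger gene Zik1, because the letters CCAAT, the core of the NF-Y box, recur in both groups. Each run holds the 250 bases before the transcription start, from RefSeq on GRCm38.p6, and capitals mark CCAAT or the same letters read on the other strand, ATTGG.
Ttc8 (chr12:98920324-98920573, plus strand): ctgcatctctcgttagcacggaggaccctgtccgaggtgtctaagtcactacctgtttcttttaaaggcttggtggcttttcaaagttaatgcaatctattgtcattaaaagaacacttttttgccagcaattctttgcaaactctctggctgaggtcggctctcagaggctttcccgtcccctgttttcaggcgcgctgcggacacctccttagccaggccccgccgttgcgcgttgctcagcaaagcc
Tctn3 (chr19:40612232-40612481, minus strand): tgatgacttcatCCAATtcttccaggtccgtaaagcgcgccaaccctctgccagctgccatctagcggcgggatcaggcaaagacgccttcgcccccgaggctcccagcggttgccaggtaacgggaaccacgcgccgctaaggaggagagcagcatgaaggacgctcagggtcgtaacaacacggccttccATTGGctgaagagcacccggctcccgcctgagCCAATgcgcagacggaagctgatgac
Wdr19 (chr5:65199446-65199695, plus strand): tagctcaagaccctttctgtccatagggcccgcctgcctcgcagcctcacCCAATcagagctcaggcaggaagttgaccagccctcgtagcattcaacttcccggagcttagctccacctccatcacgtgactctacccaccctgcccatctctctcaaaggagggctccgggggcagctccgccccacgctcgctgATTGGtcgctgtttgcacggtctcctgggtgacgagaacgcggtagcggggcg
Zik1 (chr7:10495382-10495631, minus strand): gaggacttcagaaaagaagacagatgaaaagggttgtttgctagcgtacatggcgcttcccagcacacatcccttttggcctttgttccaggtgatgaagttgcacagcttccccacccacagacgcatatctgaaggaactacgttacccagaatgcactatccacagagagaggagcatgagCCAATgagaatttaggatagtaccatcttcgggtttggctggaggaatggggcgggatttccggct
Tctn3 has 3 matches in its run, Wdr19 2, Zik1 1 and Ttc8 0. In windows of 250 bases before to 50 after the start, 28 of the 45 cilium genes with a window (62.2%) held CCAAT on either strand, as did 31 of 54 zinc-finger genes called lower (57.4%). The share was 41.1% over all 27025 genes of the promoter table and 42.7% over the 11833 tested genes that have a window. The GC box GGGCGG was held by 64.4%, 29.6%, 38.2% and 66.8% of these sets in the same order. These motifs were chosen for display after 10 were searched on both strands. The other 8 were GCGCATGCG, TGACGTCA, AAGATGGCG, TCTCGCGAG, GTTGCCATG, TTGCATCA, the ETS core CCGGAAG and the E-box CACGTG, and their shares were between 0% and 24.4% in the cilium genes and between 0% and 25.9% in the zinc-finger genes. The highest of these was the ETS core in both, against 18.3% of the tested genes with a window. A match is a run of letters and no measured binding. Median GC content of the windows was 59.7% for the cilium genes and 53.2% for the zinc-finger genes, against 60.7% over the tested genes. CCAAT was also held by 54.9% of the matched genes called lower in both columns, and by 53.9% of them without zinc-finger symbols. Of the matched genes called higher in both columns 30.1% held it. Windows were matched for 78.6%, 77.9% and 76.9% of these sets, and for 61.6% of all genes tested. Zinc-finger genes not called lower were not searched as a set, and an effect of base composition on the shares was not tested.

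The BBSome gene Ttc8 (chromosome 12, 98920574 to 98983238, plus strand) was the 1 lower gene called by edgeR in the intron column. It had 198 and 166 intron counts in controls and 15 and 8.98 at 6 h, a log2 change of -3.90 (adjusted p = 0.0252). These exceeded its exon counts in controls but not at 6 h, although that column also holds exonic reads, so the size of the intron change is uncertain. Its exon counts were 128 and 98.8 in controls and 23.7 and 37.6 at 6 h, a log2 change of -1.88 ± 0.339 (SE, adjusted p = 0.0646), which DESeq2 called with and without replicate 2 of the treatment. It was low from 2 h on, with 57.9 and 56.7 at 2 h, 52.9 and 44.5 at 4 h and 32 and 23.5 at 8 h. DESeq2 called a further pair of BBSome genes in exons, Bbs1 with 98.3 and 121 counts in controls and 24.9 and 50.2 at 6 h, and Bbs5 with 92.1 and 98.8 and 46.2 and 23.8. Bbs1 kept its call without replicate 2 of the treatment, at a log2 change of -2.13 against -1.55, and Bbs5 did not, at -1.04 against -1.44. Lztfl1, a regulator of BBSome entry into the cilium, had 178 and 158 and 99.6 and 57.7, a log2 change of -1.09, and lost its call without replicate 2 at -0.75.

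Of the transport genes, DESeq2 called Wdr19, a subunit of the retrograde IFT-A complex, with 202 and 196 counts in controls and 83 and 67.8 at 6 h, a log2 change of -1.40 ± 0.234 (SE, adjusted p = 0.0613). Ift22, of the IFT-B complex, had 135 and 122 and 49.8 and 59, a log2 change of -1.24. Both lost the DESeq2 call without replicate 2 of the treatment, at -1.25 and -1.37. Kif3b, a motor subunit of anterograde transport, had 586 and 562 and 290.5 and 326, a log2 change of -0.90, and kept its call there at -0.98. At the transition zone, Tctn3 had 190.3 and 157 and 56.9 and 59, a log2 change of -1.58 ± 0.238 (SE, adjusted p = 0.0533) that was -1.60 without replicate 2, where DESeq2 called it too. Rpgrip1l, of the same structure, had 206 and 292 and 117 and 70.3, a log2 change of -1.41 (adjusted p = 0.074), and no DESeq2 call without replicate 2, at -1.08. In each of these 5 genes the control and 6 h values were separate. Bbs1, Bbs5, Lztfl1, Ift22 and Kif3b were named after their values were seen, because DESeq2 called them. DESeq2 called 5 genes of the list without replicate 2 of the treatment, 1 without control replicate 1 and 0 without control replicate 2. Over time the list had medians of -0.21, -0.41, -0.58 and -0.57 at 2, 4, 6 and 8 h, and in CGR8 cells 0.06, with 23 of 51 below 0. In the times and the CGR8 table each ratio was taken of mean normalized counts rather than from the fit.

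Zinc-finger genes made up a larger share of the lower calls than of the genes tested. They were taken by symbol (Zfp with a number, Zkscan, Zscan and Zik1), after the values had been seen, so no test is given for them. Of 395 such genes tested in exons, edgeR called 1 lower, Zik1, and 1 higher, Zfp423. DESeq2 called 65 lower and again Zfp423 higher, and 156 lower and 17 higher had an unadjusted p under 0.05. Over all genes DESeq2 called 2.22% lower and 1.38% higher, and 8.21% lower and 7.93% higher had such a p. They were 65 of the 348 genes called lower (18.7%) and 39 of the 220 called lower in both columns (17.7%), against 395 of 19205 genes tested (2.06%), and 1 of the 108 called higher in both columns. The median log2 fold change was -0.49, with 323 genes below 0 (81.8%), and -0.71 in replicate 2 but -0.26 in replicate 1, where 267 were below 0. Without replicate 2 of the treatment DESeq2 called 7 lower, without control replicate 1 it called 7 and without control replicate 2 it called 1. For 229 genes both 6 h values lay below both controls and for 36 above, against 22.2% and 21.5% of all genes. The shift was -0.25 at 2 h and at 4 h and -0.29 at 8 h, smaller than at 6 h, and 0.17 in CGR8 cells, with 130 of 395 below 0.

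The 7 zinc-finger genes called without replicate 2 of the treatment were Zik1, Zfp759, Zfp738, Zfp956, Zfp518a, Zfp354c and Zscan20. Zfp518a had 2168 and 2708 counts in controls and 1398 and 846 at 6 h, a log2 change of -1.12 that was -0.80 without replicate 2. Zfp354c had 671 and 713 and 352 and 311, Zfp738 427 and 464 and 226 and 146, and Zscan20 473 and 527 and 238 and 294. In all 4 both 6 h libraries lay below both controls. Zfp956 had 239 and 228 and 71.1 and 133, with replicate 1 the lower of the pair. Many zinc-finger genes lie in clusters of near-identical copies, where reads can be assigned to the wrong copy, and the rule used to count reads that map to several places is not given in the sources used here.

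**Figure D4:**
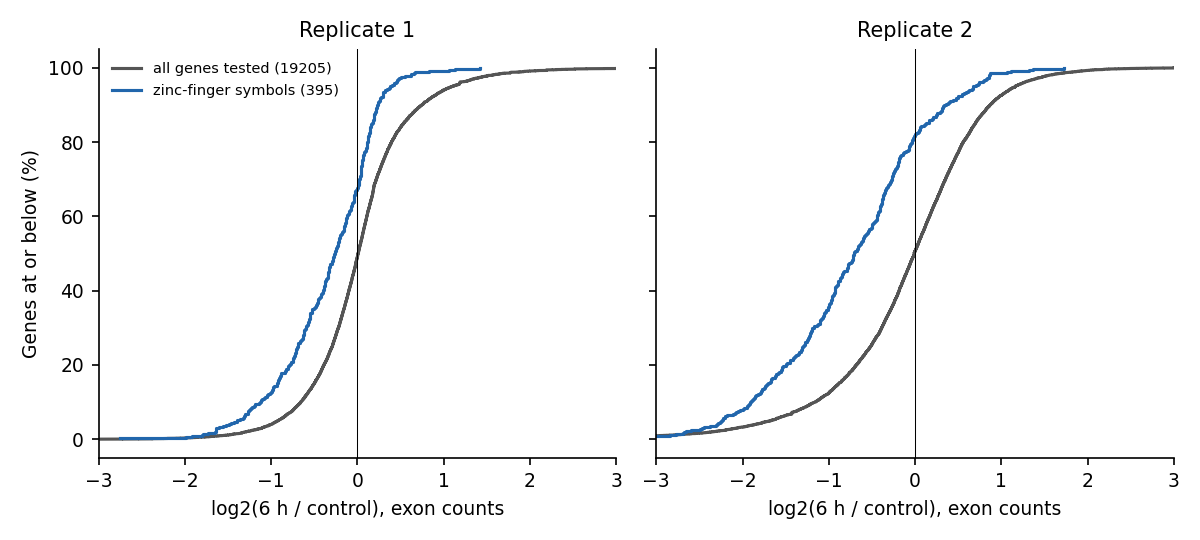
Cumulative share of genes (vertical axis, percent) against the log2 ratio of 6 h to control in exon counts, for all 19205 genes tested in grey and 395 zinc-finger genes in blue, in replicate 1 (left) and replicate 2 (right). The blue curve lies left of the grey one over most of the range in both, with medians of -0.26 in replicate 1 and -0.71 in replicate 2.

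Lists of lineage genes had positive medians. Of 14 early mesoderm genes tested, 13 were above 0 and 6 had an unadjusted p under 0.05, all higher, against 7.93% of all genes. edgeR called 0 and DESeq2 called 1, Tbx20, against 1.38% of all genes called higher by DESeq2. For 9 of the 14 both 6 h values exceeded both controls, against 21.5% of all genes. The median was 0.84, with 0.58 in replicate 1 and 0.82 in replicate 2, and -0.03 in CGR8 cells. Tbx20, a T-box factor of the heart, had 282 and 181 counts in controls and 736 and 361 at 6 h, with replicate 1 the higher. Its log2 change of 1.25 ± 0.379 (SE, adjusted p = 0.167) was 1.68 without replicate 2, where DESeq2 still called it, as it did without control replicate 1 but not without control replicate 2. Meis1, a homeobox factor, had 46.5 and 59.1 and 116 and 92.9, a log2 change of 0.98 (adjusted p = 0.117), and in CGR8 cells a log2 ratio of 0.74. Twist1, a mesenchymal bHLH factor, had 99.3 and 53.2 and 142 and 188, and Eomes, a T-box factor of gastrulation, 203 and 149 and 294 and 281, with separate groups and no call.

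For the other lineages the medians rest on few genes. They were 0.52 over 13 endoderm genes, 0.46 over 10 trophectoderm genes and 0.46 over 14 neuroectoderm genes. In replicate 1 alone they were 0.28, 0.11 and 0.44. In CGR8 cells given IAA they were -0.15, -0.14 and -0.30, with 10 of 13, 7 of 10 and 9 of 12 genes below 0. edgeR called 0 of the 37, with 3, 2 and 1 higher and 1 neuroectoderm gene lower at an unadjusted p under 0.05, and DESeq2 called 0, 1 and 1 higher, none of which it called without replicate 2 of the treatment. Over all genes, 7.93% were higher and 8.21% lower at an unadjusted p under 0.05, and DESeq2 called 1.38% higher. Gata6, a GATA factor of primitive endoderm, had 10.3 and 8.44 counts in controls and 22.5 and 36.4 at 6 h, a log2 change of 1.64 (adjusted p = 0.13). Gata3, a GATA factor of trophectoderm, had 31 and 28.7 and 96 and 125, a log2 change of 1.89 (adjusted p = 0.0679), and was called by DESeq2 with but not without replicate 2, at 1.69. Irx3, a neural homeobox factor, had 32.1 and 27 and 54.5 and 90.3, a log2 change of 1.29 that was 0.89 without replicate 2, where its DESeq2 call was lost. For these 3 genes every control value lay below every 6 h value.

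Of 25 pluripotency genes 24 were above 0 and 6 had an unadjusted p under 0.05, all higher, against 7.93% of all genes. edgeR called 0 and DESeq2 called 1, Nr0b1. The median was 0.31, but -0.01 without replicate 2 of the treatment and 0.15 in replicate 1 alone. The summed counts of the list were 139956 and 161470 in the controls, 152228 in replicate 1 at 6 h and 246478 in replicate 2. Nr0b1, the orphan nuclear receptor DAX1, had 563 and 826 in controls and 957 and 2087 at 6 h, a log2 change of 1.13 (adjusted p = 0.166) and 0.46 without replicate 2, where its DESeq2 call was lost. Myc, which drives growth, had 1968 and 2040.0 and 2631 and 3309, a log2 change of 0.57 (adjusted p = 0.105) and 0.40 without it. Of the 13 genes of formative pluripotency 11 were above 0, 4 higher and 1 lower had an unadjusted p under 0.05, edgeR called 0 and DESeq2 called 1 higher, Tcf15. The median was 0.22, and 0.12 in replicate 1. Otx2, a factor of the exit from the naive state, had 2385 and 2650.2 and 2114 and 1419, a log2 change of -0.51, and was the 1 lower gene.

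**Figure D5:**
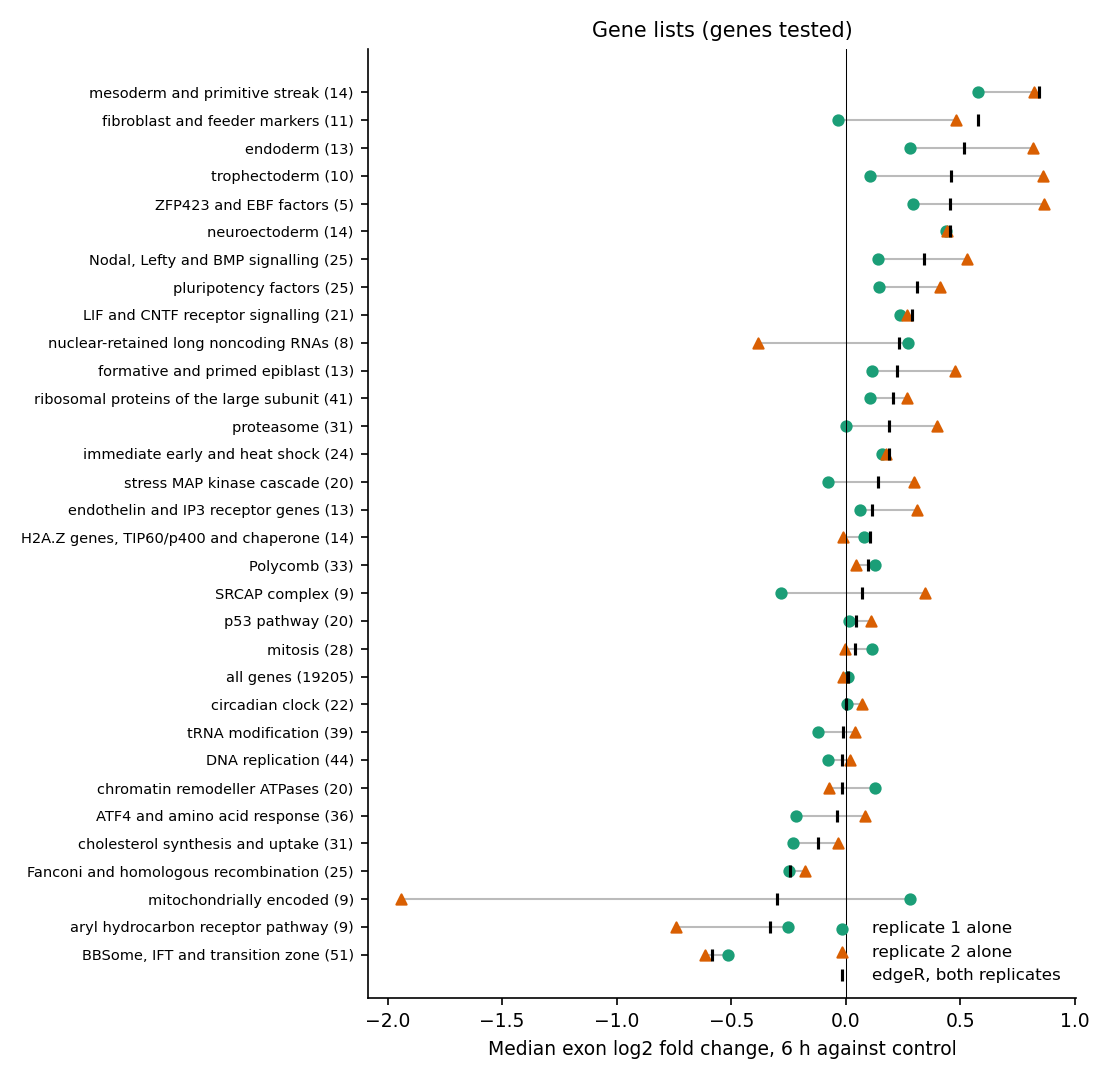
Median exon log2 fold change at 6 h (horizontal axis) of each gene list with 5 or more genes tested (number in brackets), as a black bar for the edgeR fit, a green circle for replicate 1 alone and an orange triangle for replicate 2 alone. The mesoderm list lies at 0.84 and the list of the BBSome, intraflagellar transport and transition zone at -0.59, and the mitochondrial genes have the widest gap, from 0.28 in replicate 1 to -1.94 in replicate 2.

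In signalling, the lists around the called receptors and ligands were examined. Of 25 genes of Nodal and BMP signalling, 10 had an unadjusted p under 0.05, all higher, against 7.93% of all genes. The median was 0.34, and 0.14 in replicate 1. edgeR called 0 and DESeq2 2, both higher, against 1.38% of all genes called higher by DESeq2. Those 2 were Chrd, a secreted BMP antagonist, with 83.8 and 59.1 counts in controls and 157 and 167 at 6 h, and Bmp4, a BMP ligand, with 187 and 252 and 366 and 573. Both had separate groups, at log2 changes of 1.18 and 1.09 (adjusted p = 0.0752 and 0.18 from edgeR), and DESeq2 called neither without replicate 2, at 1.14 and 0.74. Smad6, an inhibitory SMAD, had 69.3 and 55.7 and 103 and 133, a log2 change of 0.92.

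The LIF and CNTF list had 21 genes, of which 6 had an unadjusted p under 0.05, all higher, against 7.93% of all genes. edgeR called 1 of them, Cntfr, and DESeq2 called 4, with 1 without replicate 2 of the treatment, 2 without control replicate 1 and 1 without control replicate 2. The median was 0.29, and 0.24 in replicate 1. Pim1, a kinase gene induced by STAT3, had 645 and 585 counts in controls and 1091 and 974 at 6 h, a log2 change of 0.75 (adjusted p = 0.106). Pim3, of the same family, had 1884 and 2009.6 and 2376 and 5593, where replicate 2 lay far above the rest, a log2 change of 1.03. Without replicate 2 the values were 0.83 for Pim1 and 0.29 for Pim3, and DESeq2 called neither. Among 13 endothelin and inositol trisphosphate genes, edgeR and DESeq2 called Edn2 and Itpr3, and the median was 0.11, with 0.06 in replicate 1. Cntfr, Edn2 and Itpr3 are themselves members of these lists, which were chosen with earlier results known. Part of these calls can therefore follow from the choice of lists.

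Of 20 stress MAP kinase genes, edgeR called Map2k6 alone and DESeq2 called 1 lower and 1 higher, Dusp1, with a median of 0.14, and -0.08 in replicate 1. Map2k6 is itself a member of this list, which was chosen with earlier results known. Map2k7, the kinase of the parallel JNK branch, had 975 and 1063 and 697 and 738, both 6 h values lower, at a log2 change of -0.51 without a call. Map3k1, an upstream kinase, had 1461 and 1488 and 2218 and 2005, at 0.52, also without a call by edgeR (adjusted p = 0.109). Of 22 circadian clock genes DESeq2 called Bhlhe40 higher, a repressor of the clock. It had 235 and 132 in controls and 526 and 374 at 6 h, a log2 change of 1.30 (adjusted p = 0.147) and 1.53 without replicate 2, where it was still called, while the median of the list was 0.00, also in replicate 1, with 0 edgeR calls and 3 genes higher at an unadjusted p under 0.05. Among 24 immediate early and heat shock genes, 16 were above 0 in the fit and 21 in replicate 1, with a median of 0.19. In this list edgeR called 0, DESeq2 called 1 higher and 4 were higher at an unadjusted p under 0.05. Over all genes, 8.21% were lower and 7.93% higher at such a p, and DESeq2 called 2.22% lower and 1.38% higher. Jund, an AP-1 subunit, had 1330.1 and 1173 and 1659.9 and 3002, and Dusp1, the MAP kinase phosphatase called in the stress list, 815 and 619 and 1115 and 1378, with log2 changes of 0.90 and 0.80. DESeq2 called both, and neither without replicate 2, at 0.41 and 0.64.

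Some lower genes were lower after IAA in the parental cells too, which carry no degron. The list of the aryl hydrocarbon receptor, a sensor of indole and other aromatic compounds, held 9 genes. Of these, 4 had an unadjusted p under 0.05, all lower, against 8.21% of all genes. edgeR called 0 and DESeq2 2. The median was -0.33, with -0.25 in replicate 1 and -0.19 without replicate 2 of the treatment. Cyp1a1, the classical target, had 794 and 833 counts in controls and 322 and 393 at 6 h, a log2 change of -1.19 (adjusted p = 0.0559), and DESeq2 called it also without replicate 2. CGR8 cells had 719.5 and 709 without and 217 and 213 with 4 h of IAA, a log2 ratio of -1.73, larger in size than in SYAT cells. Cyp1b1, a related enzyme, had 658 and 668 and 405 and 350.1 in SYAT cells, at -0.81 and at -0.71 without replicate 2, where its DESeq2 call was lost, and a log2 ratio of -1.32 in CGR8 cells. The difference between the cell lines was not tested.

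Of 36 genes of the ATF4 and amino acid response, 5 lower and 1 higher had an unadjusted p under 0.05, against 8.21% and 7.93% of all genes. For this list edgeR called 0 and DESeq2 1 lower, Chac1, against 2.22% of all genes called lower by DESeq2. The median of the 36 was -0.04, and -0.22 in replicate 1, against -0.38 in CGR8 cells, where 33 of the 36 were below 0. Chac1, a glutathione-degrading enzyme induced by ATF4, had 97.2 and 59.1 in controls and 24.9 and 20.1 at 6 h, a log2 change of -1.79 (adjusted p = 0.085), and it lost its DESeq2 call without replicate 2, at -1.64. CGR8 cells had 474 and 547 Chac1 counts without and 80.7 and 44.2 with IAA. Atf4 had 1972 and 1526 and 1067 and 1400.4 in SYAT cells, at -0.50, and a log2 ratio of -1.53 in CGR8 cells. For both, the CGR8 ratio had the same sign and a larger size. The 31 cholesterol synthesis genes had a median of -0.12 in SYAT cells, -0.23 in replicate 1 and -0.04 without replicate 2 of the treatment, and -0.38 in CGR8 cells, with 0 edgeR calls and 1 lower at an unadjusted p under 0.05. In that list Insig2, a brake on sterol synthesis, was called lower by DESeq2, at 346 and 347 in controls and 189 and 171 at 6 h, a log2 change of -0.95 (adjusted p = 0.0744). Its ratio in CGR8 cells was 0.31, and its DESeq2 call was lost without replicate 2, at -0.88.

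Enzymes of tRNA modification held 1 edgeR call, Alkbh8, among 39 genes tested, with a median of -0.01, and -0.12 in replicate 1. Alkbh8 is itself a member of this list, which was chosen with earlier results known. DESeq2 also called Adat2, an adenosine deaminase of tRNA, with 215 and 187 in controls and 77.1 and 87.8 at 6 h, a log2 change of -1.28 (adjusted p = 0.0646), and it kept that call without replicate 2 but not without either control. Homologous recombination and Fanconi genes lay mostly below 0, 21 of 25 in the fit and 23 of 25 in replicate 1, with a median of -0.24, 3 lower and 1 higher at an unadjusted p under 0.05 and 0 called by edgeR or DESeq2. For 13 of the 25 both 6 h values lay below both controls and for 0 above, against 22.2% and 21.5% of all genes. DNA replication genes had a median of -0.01 over 44 and of -0.12 without replicate 2 of the treatment, with 0 edgeR calls and 5 lower and 2 higher at an unadjusted p under 0.05. Over all genes, 8.21% were lower and 7.93% higher at such a p, and DESeq2 called 2.22% lower and 1.38% higher. DESeq2 called Gins3, of the replicative helicase, and Pole2, of polymerase epsilon, lower. Pole2 had 375 and 403 and 224 and 236, at -0.76 (adjusted p = 0.0908), Gins3 had 364 and 376 and 239.5 and 215, at -0.71, and DESeq2 called neither without replicate 2, at -0.79 and -0.63.

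Chromatin genes outside the SRCAP complex had medians near 0. The medians were -0.02 over 20 other remodellers and 0.10 over 33 Polycomb and bivalency genes, with 0.13 in replicate 1 for both, and edgeR called 0 in both. DESeq2 called 1 higher in each, and 1 and 5 genes had an unadjusted p under 0.05, all higher. Chd7, a remodeller of enhancers, had 3076 and 2991 counts in controls and 5014 and 5197 at 6 h. The pairs were well apart, with a log2 change of 0.75 ± 0.119 (SE, adjusted p = 0.0533) and 0.73 without replicate 2, where DESeq2 still called it. Epop, a Polycomb partner of ES cells, had 3851 and 4582 and 5113 and 13347, its log2 change of 1.13 resting on replicate 2 and being 0.28 without it, where its DESeq2 call was lost. Of 20 p53 targets DESeq2 called Gadd45a, with 312 and 299 and 564 and 516, at 0.82 (adjusted p = 0.0724) and 0.89 without replicate 2. The median of the list was 0.05 and 0.01 in replicate 1, with 0 edgeR calls and 3 higher at an unadjusted p under 0.05. Mitosis genes (28, median 0.04), proteasome genes (31, 0.19) and large ribosomal subunit genes (41, 0.20) had 0 calls by edgeR or DESeq2. At an unadjusted p under 0.05, 3, 0 and 8 of them were higher, against 7.93% of all genes. In replicate 1 the medians of these lists were 0.11, 0.00 and 0.10, and without replicate 2 of the treatment that of the proteasome was 0.03. The 9 mitochondrial genes had a median of 0.28 in replicate 1 and of -1.94 in replicate 2. The 11 fibroblast markers had a median of 0.58 but of -0.03 in replicate 1, with 3 higher at an unadjusted p under 0.05, and 8 nuclear-retained long noncoding RNAs had 0.23 with 1 lower, both without a call by edgeR or DESeq2. The ZFP423 and EBF list had a median of 0.46 over 5 genes, 0.29 in replicate 1, with Zfp423 its 1 call. Zfp423 is itself a member of this list, which was chosen with earlier results known. Of 14 genes of the two-cell-like state 2 were tested, with no call. Their median was -0.18, and -0.45 without replicate 2 of the treatment.

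Set against its neighbours in time, the 6 h treatment gave almost no calls. Against 4 h, edgeR called 0 genes (0%) in exons and in the intron column, with 664 (3.46%) and 239 (1.62%) at an unadjusted p under 0.05, and DESeq2 called 0 and 1 (0.00445%). Against 8 h, edgeR called 0 in both, with 475 (2.47%) and 199 (1.35%) at an unadjusted p under 0.05, and DESeq2 called 0 and 1. The control means do not enter these comparisons, but the control libraries share the filter, the scaling and the estimate of spread. Without replicate 1 of the 6 h treatment, which leaves the library that stands apart to represent it and assumes that it varies like the other groups, edgeR called 2213 genes in exons against 4 h and 1947 against 8 h. An absent call at 2 libraries a side does not show that the times were alike.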

How the data were processed

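Nuclear RNA was sequenced from 30 libraries, of which the 10 of the SYAT time course entered the fits and the 4 of CGR8 cells were set beside them. According to the Methods and the processing notes, the authors used STAR on mm10 and took featureCounts totals per GENCODE vM25 gene, once over its exons and once over the remainder of its body. The files deposited by the authors hold these raw counts for 55401 genes. Their tables of fold changes and p-values from their own comparisons were not used. Symbols and mm10 coordinates came from GENCODE vM21, where 55141 identifiers matched without version.

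Here, genes passed filterByExpr (minimum count 10, minimum total 15) before TMM scaling, and edgeR 4.0.16 (glmQLFit, glmQLFTest) in R 4.3.3 was fitted on all 10 libraries by group, with Benjamini-Hochberg adjustment. DESeq2 1.42.0 with shrinkage (type normal), the study's tool, was run beside it. Both were also run on simulated data, where each missed some changed genes and called some unchanged ones. Calls needed an adjusted p under 0.05 and an absolute log2 fold change above 0.5. Normalized counts are the TMM-scaled counts of each library, and ratios within a replicate, over time or in CGR8 cells were taken after adding 1 to them. Genes were named if they were Srcap, called by edgeR, among the 10 largest changes in each direction called by DESeq2 in both columns with at least 50 mean normalized exon counts and the same sign in replicate 1, or among the 4 lowest p of a list. Exceptions are named where they appear. Members and lists were chosen with earlier results of these data known. Promoter sequences came from RefSeq for GRCm38.p6. A window was matched for 78.6% of the 220 genes lower and 76.9% of the 108 higher in both columns, and for 61.6% of the genes tested. Motif shares of these sets cover their matched genes only. Alternatives were another scaling, no filter, each library left out, the 4 libraries alone, a replicate block and, for introns, exon counts taken off.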

Additional observations from a re-analysis of the deposited data

How the results depend on the processing

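Depth was similar across the libraries, and the limit of the comparison is 2 libraries a group, one of which stands apart. Counts of called genes are given as lower and higher. Scaling by DESeq2's size factors moved no edgeR count by over 1.5 times. DESeq2 in place of edgeR gave 348 and 216 in exons and 282 and 182 in the intron column, against 7 and 6 and 1 and 1. Without a filter on low counts, edgeR gave 395 and 490 in exons and 38 and 39 in the intron column, and 87 and 63 genes in exons against 4 h and 8 h. With the 4 libraries alone, edgeR gave 0 and 0 in both columns, and DESeq2 23 and 22 in exons and 157 lower in the intron column. With exon counts taken off the intron counts, edgeR gave 0 and 0 and DESeq2 44 and 75. In the intron column DESeq2 called 1 gene against 4 h and 1 against 8 h, where edgeR called 0. The causes were not tested.

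Leaving out 1 library at a time gave ranges whose upper end was in every case without replicate 1 of the 6 h treatment. By edgeR they were 0 to 1542 lower and 0 to 1621 higher in exons and 0 to 685 and 0 to 783 in the intron column. By DESeq2 they were 10 to 1464 and 14 to 1508 in exons and 16 to 855 and 42 to 971 in the intron column. Against 4 h they were 0 to 2213 in exons and 0 to 691 in the intron column, and against 8 h 0 to 1947 and 0 to 512.

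No label says whether equal replicate numbers mark libraries that were handled together. Between control and 6 h the deviations of same-numbered libraries from their group means correlated at -0.039 in exons and -0.003 in the intron column. Among the control, 2, 4 and 8 h groups the same correlation was 0.25 to 0.57 in exons and 0.26 to 0.62 in the intron column, and between the 6 h group and those at 2, 4 and 8 h it was 0.027 to 0.053 and 0.089 to 0.17. The 6 h group holds the library that stands apart, so its low correlations cannot show that the numbers carry no shared effect. With the number as a block, edgeR gave 498 and 325 in exons and 2 and 6 in the intron column. DESeq2 gave 575 and 499 in exons and 342 higher in the intron column.

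Of 77 genes given with a fold change, every one kept its sign in edgeR without each library, with the replicate block and in replicate 1 alone. Most were chosen for calls or low p-values from these same libraries, and some for their sign in replicate 1. The kept signs therefore follow largely from the choice and are no independent check. The 13 called by edgeR lost the call without either control library and without replicate 2 of the treatment. Median log2 fold changes of lists moved by over 1 SD between replicates for the neuroectoderm list with other size factors (0.46, from a slightly lower value) and without a filter (0.38), and for the two-cell-like list without a filter (0.16, from -0.18). With each library left out, they ranged from -0.57 to -0.50 for cilium genes, 0.67 to 0.89 for mesoderm, 0.34 to 0.55 for neuroectoderm, -0.015 to 0.62 for pluripotency and 0.16 to 0.54 for formative genes. They ranged from 0.21 to 0.33 for LIF and CNTF signalling, -0.012 to 0.10 for H2A.Z and TIP60, 0.10 to 0.16 for Polycomb, -0.29 to -0.18 for Fanconi genes, -0.12 to 0.10 for DNA replication, 0.31 to 0.93 for ZFP423 and EBF, and 0.12 to 0.23 for immediate early genes. They ranged from -0.32 to 0.11 for cholesterol, 0.045 to 0.13 for p53, -0.14 to 0.065 for tRNA modification, 0.16 to 1.12 for fibroblast markers, -0.27 to 0.28 for long noncoding RNAs, -0.45 to -0.069 for two-cell-like, -0.64 to -0.19 for aryl hydrocarbon receptor genes and -1.90 to 0.25 for mitochondrial genes.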

Other observations

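Genes of the lysosome and of autophagy were looked at because Ctns and Lipa were among the lower genes. The lists were written after those values had been seen, so they are described without a test. Ctns is itself counted among the lower lysosome genes below, so part of their share was fixed by the choice of list. Of 46 lysosome genes tested in exons, edgeR called 1 lower, Ctns, and DESeq2 called 7 lower (15.2%) and 1 higher, against 2.22% lower and 1.38% higher over all genes, with 4 lower without replicate 2 of the treatment, 2 without control replicate 1 and 1 without control replicate 2. The median was -0.15, with -0.19 in replicate 1. Acp2, the lysosomal acid phosphatase, had 364 and 420.3 normalized exon counts in the control libraries and 183 and 127 at 6 h. Both 6 h values lay below both controls, at a log2 change of -1.34 (adjusted p = 0.0611 from edgeR) that was -1.10 without replicate 2. Ppt1, a thioesterase mutated in a neuronal storage disease, had 531 and 550.3 and 300.0 and 257, at -0.96. Of 20 genes of the vacuolar proton pump DESeq2 called 2 lower, Vma21 and Atp6v0e2, and neither without replicate 2, at -0.84 and -1.12 against -1.24 and -1.51. The median was -0.06, with -0.22 in replicate 1, 0.12 in replicate 2 and -0.19 without replicate 2 of the treatment, and in replicate 1 alone 18 of the 20 were below 0.

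Of 36 autophagy genes DESeq2 called 4 lower (11.1%) and 1 higher, with 4 lower without replicate 2 of the treatment, 1 without control replicate 1 and 0 without control replicate 2, and the median was -0.15, with -0.14 in replicate 1. Atg9a, the membrane protein of autophagosome formation, had 351 and 298 and 149 and 154, at -1.09 (adjusted p = 0.0679 from edgeR). Calcoco1, a receptor of selective autophagy, had 757 and 882 and 383 and 466, at -0.95. In both the groups were separate. Over all genes DESeq2 called 2.22% lower and 1.38% higher. Of 16 peroxisome genes DESeq2 called Pex3, which inserts proteins into the peroxisomal membrane, and Pex11a lower, with a median of -0.14 that was -0.34 in replicate 1 and -0.30 without replicate 2 of the treatment. Pex3 had 147 and 176 and 54.5 and 57.7, a log2 change of -1.52 (adjusted p = 0.0646) that was -1.56 without replicate 2, where DESeq2 still called it. The log2 ratio of Pex3 in CGR8 cells after 4 h of IAA was 0.63.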
